A study of Mus musculus with 8 samples.

Results

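To describe how the machinery that stores, delivers and receives transforming growth factor beta (TGF-β) was transcribed in hearts with and without the RNA methyltransferase gene Mettl3, the 10 genes for latent TGF-β binding proteins (Ltbp1 to Ltbp4), ligands (Tgfb1 to Tgfb3) and receptors (Tgfbr1 to Tgfbr3) were taken by symbol from a table of 23045 genes. All 10 were listed once and all 10 passed the filter on low values, which kept 20313 genes. In the Mettl3 KO hearts Ltbp2 was 6.21-fold higher than in WT hearts, Tgfb2 1.75-fold, Tgfb3 1.54-fold and Tgfbr1 1.20-fold, whereas Tgfb1 was at 81.2% and Tgfbr3 at 90.1% of the WT level. Ltbp1, Ltbp3, Ltbp4 and Tgfbr2 were 1.06-fold to 1.15-fold. Tgfb1 and Tgfbr3 did not reach an adjusted p under 0.05 by limma, and Tgfbr1 did so in only 8 of 17 alternative settings. The family was selected on the values of this same contrast, since the difference in Ltbp2 was known when the family was proposed. The genotype differences of the 10 genes are therefore given as a description, without p-values.

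Libraries of heart RNA numbered 4 for WT and 4 for Mettl3 KO. Mice of both genotypes carried loxP-flanked Mettl3 alleles (Mettl3lox/lox), were 10 to 16 weeks old when treatment began and received 100 µg tamoxifen per g body weight on 7 consecutive days. The Mettl3 KO mice additionally carried alphaMHC-MerCreMer, a tamoxifen-activated Cre recombinase made in cardiomyocytes. Deletion was thus directed to cardiomyocytes while the RNA came from heart tissue. The WT mice carried no Cre, so an effect of the recombinase itself cannot be told apart from loss of Mettl3. The labels give separate libraries and do not say from how many hearts each was made, so the errors and p-values below measure the spread between these libraries.

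TGF-β is secreted as an inactive complex in which the mature dimer stays wrapped in its own propeptide, and latent TGF-β binding proteins tether this complex to fibrillin and fibronectin fibres of the extracellular matrix. Integrins, thrombospondin and proteases release the ligand, which then binds the type II receptor, recruits and activates the type I receptor and drives phosphorylation of SMAD proteins. In the heart the pathway is best known for matrix production by fibroblasts during fibrosis and for valve and septum formation in the embryo.

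Mettl3 itself had 116 ± 12.8 normalized read counts in WT (mean ± SD, n = 4 here and below) and 72.3 ± 4.65 in Mettl3 KO hearts, a log2 fold change of -0.67 (adjusted p = 0.000184, limma). Normalized read counts summed to 2839589 to 2916986 per library, and the spacing of low values gave an estimate of 2631281 to 3062476 reads per library before normalization. Of the 20313 genes tested, 7.91% had an adjusted p under 0.05, with 4.72% higher and 3.19% lower in Mettl3 KO. The share was 13.3% among the 9313 genes with a mean of at least 50. All 10 members reach that mean, but Ltbp2, at 15.3 in WT and 94.8 in Mettl3 KO, only through Mettl3 KO. For 11.5% of genes all libraries of one genotype lay above all of the other. Genes past that adjusted p are called changed in what follows.

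Among the 10 family members 4 were called (Ltbp2, Tgfb2, Tgfb3 and Tgfbr1), beside 7.91% of all genes tested, and nothing is read from this count because the same contrast chose the family. By limma 0 of the 10 were called lower, while 2 had lower values at an unadjusted p under 0.05 and 0 were called lower with voom weights. Library values parted by genotype without overlap for 6 members, beside 11.5% of all genes. The median log2 fold change of the 10 genes was 0.20, beside -0.01 for all genes tested.

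**Figure D1:**
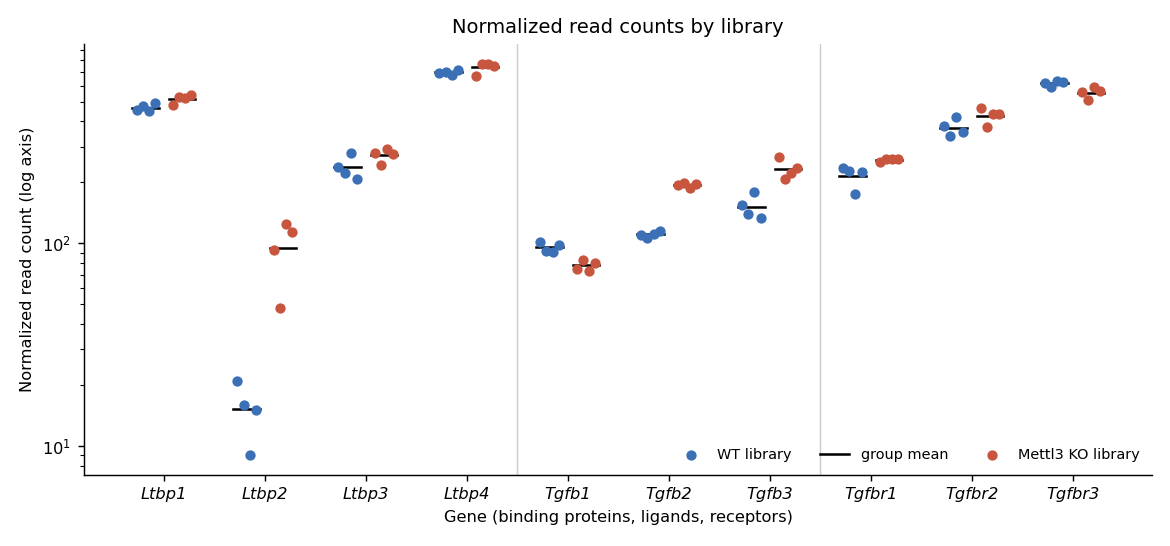
Normalized read counts on a log axis for the 10 genes in each of the 4 WT and 4 Mettl3 KO libraries (points) with the group means (lines). Ltbp2 lies between 9 and 21 in WT and between 48 and 125 in Mettl3 KO, and the groups also part for Tgfb1, Tgfb2, Tgfb3, Tgfbr1 and Tgfbr3.

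The genes with the largest differences in the family are Ltbp2 and Tgfb2, and the 250 bases before their transcription start sites are shown because both rose and the SMAD proteins of the pathway act through short elements in such sequence. The sequences are those of RefSeq for GRCm38.p6, written 5′ to 3′ in the direction of the gene, at chr12:84876492-84876741 (minus strand) for Ltbp2 and chr1:186705990-186706239 (minus strand) for Tgfb2. Capitals mark the SMAD box, CAGAC or its complement GTCTG, the short element that SMAD proteins contact.
Ltbp2: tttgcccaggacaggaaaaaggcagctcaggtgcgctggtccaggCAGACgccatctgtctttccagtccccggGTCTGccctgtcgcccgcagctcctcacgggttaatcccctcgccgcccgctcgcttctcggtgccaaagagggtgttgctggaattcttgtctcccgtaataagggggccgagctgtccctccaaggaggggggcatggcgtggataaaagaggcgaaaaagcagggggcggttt
Tgfb2: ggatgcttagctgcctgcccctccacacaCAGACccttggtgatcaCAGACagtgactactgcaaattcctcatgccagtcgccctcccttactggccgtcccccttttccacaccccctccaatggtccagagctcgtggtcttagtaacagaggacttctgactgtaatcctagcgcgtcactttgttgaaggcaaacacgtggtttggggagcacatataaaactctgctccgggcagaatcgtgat

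Each of these windows holds 2 SMAD boxes, which begin at -205 and -176 from the start site in Ltbp2 and at -221 and -204 in Tgfb2. At least 1 such box is present in 42.2% and at least 2 in 11.7% of 32851 mouse promoter windows of this length, so the match is a description of these letters and not a binding site. RefSeq windows were matched for 8 of the 10 members, all but Tgfb3 and Tgfbr3, giving 12 windows because Ltbp1, Ltbp4 and Tgfbr1 have several start sites. A SMAD box was found in 7 of the 12 windows, and at least 2 in 3 of them. Beside those of Ltbp2 and Tgfb2 this was a window of Ltbp1, which was not called. Ltbp2 also has 2 GC boxes (GGGCGG or CCGCCC, present in 32.7% of all windows), and Tgfb2 has a TATA box (TATAAA or TTTATA, 12.4% of all windows) beginning at -31, the position typical of that element. The cyclic AMP response half-site TGACGT or ACGTCA, found in 6.47% of all windows, was present in 1 window, that of Ltbp1, and GGAATG or CATTCC, the core read by TEAD factors and found in 12.6%, in 0 of the 12. Each motif was searched on both strands, and in the printed windows no match of one overlapped a match of another. GC content was 61.6% in the Ltbp2 window and 53.6% in that of Tgfb2, beside a median of 52.4% over all windows.

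Among the binding proteins Ltbp2 stood apart. LTBP2 is the one member of its family that does not bind latent TGF-β covalently and is known instead as a fibrillin-associated matrix protein. Ltbp2 (ENSMUSG00000002020, minus strand of chromosome 12 from 84829986 to 84923306, as all locations of members in mm39) had normalized read counts of 21, 16, 9 and 15 in WT libraries 1 to 4 and of 93, 48, 125 and 113 in Mettl3 KO libraries 1 to 4. Every Mettl3 KO library exceeded every WT library, and Mettl3 KO library 2 was the lowest of its group. The means were 15.3 ± 4.92 and 94.8 ± 33.9, a log2 fold change of 2.53 (SE 0.25) that ranks 7th from the top among the 20313 genes tested. Relative to the mean, the libraries of one genotype varied by 32.3% in WT and 35.7% in Mettl3 KO. With any 1 library left out the log2 fold change lay between 2.31 and 2.82.

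The other 3 binding proteins, which do bind the latent complex in the case of LTBP1, LTBP3 and more weakly LTBP4, were not called. Ltbp1 (ENSMUSG00000001870, plus strand of chromosome 17 from 75312563 to 75699507) had 455, 473, 447 and 493 in the WT libraries against 483, 526, 521 and 541 in those of Mettl3 KO, a log2 fold change of 0.15 (SE 0.05). Only the lowest Mettl3 KO library, number 1, fell within the WT range, and without it the gene was called. Ltbp3 (ENSMUSG00000024940, plus strand of chromosome 19 from 5790932 to 5808560) had 239, 223, 279 and 208 in the WT libraries against 279, 243, 291 and 276 in those of Mettl3 KO, a log2 fold change of 0.20 (SE 0.08). WT library 3 reached the Mettl3 KO values, and Ltbp3 was called when that library was left out. Ltbp4 (ENSMUSG00000040488, minus strand of chromosome 7 from 27004561 to 27037117), the most abundant member per length, had 695, 702, 676 and 718 in the WT libraries against 668, 763, 770 and 748 in those of Mettl3 KO, a log2 fold change of 0.08 (SE 0.05). Its lowest library of all was a Mettl3 KO library, number 1, so the groups overlapped.

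The 3 ligand genes parted the genotypes without overlap, beside 11.5% of all genes, and not in one direction. Tgfb2, a ligand known for its part in endocardial cushion formation, rose. Tgfb2 (ENSMUSG00000039239, minus strand of chromosome 1 from 186354989 to 186438186) had 110, 106, 111 and 115 in the WT libraries against 194, 198, 187 and 196 in those of Mettl3 KO. Both groups were tight, and the gap between them was many times the spread within either. A spread taken from 4 libraries can fall below the true one. The means were 111 ± 3.70 and 194 ± 4.79, a log2 fold change of 0.80 (SE 0.08), which stayed between 0.78 and 0.82 in all 17 alternative settings. Tgfb3 (ENSMUSG00000021253, minus strand of chromosome 12 from 86103519 to 86125815), the most abundant ligand per length, had 154, 140, 178 and 133 in the WT libraries against 267, 207, 223 and 235 in those of Mettl3 KO. The highest WT library, number 3, remained below the lowest Mettl3 KO library, number 2. The means were 151 ± 19.9 and 233 ± 25.4, a log2 fold change of 0.62 (SE 0.09), and Tgfb3 was called in 16 of 17 alternative settings, the exception being the fit without a mean-variance trend.

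Tgfb1, the isoform most studied in fibrosis, lay on the other side. Tgfb1 (ENSMUSG00000002603, plus strand of chromosome 7 from 25386427 to 25404502) had 102, 92, 91 and 98 in the WT libraries against 75, 83, 73 and 80 in those of Mettl3 KO. All 4 Mettl3 KO libraries were below all 4 WT libraries. The means were 95.8 ± 5.19 and 77.8 ± 4.57, and the log2 fold change of -0.30 (SE 0.10) was not called, nor was it in any of 17 alternative settings. The ligands were thus 2 called of 3, both higher, with Tgfb1 at lower values and not called. Of all genes tested 7.91% were called and 4.72% were called higher. Nothing is read from the ligand count, because the same contrast chose the family.

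**Figure D2:**
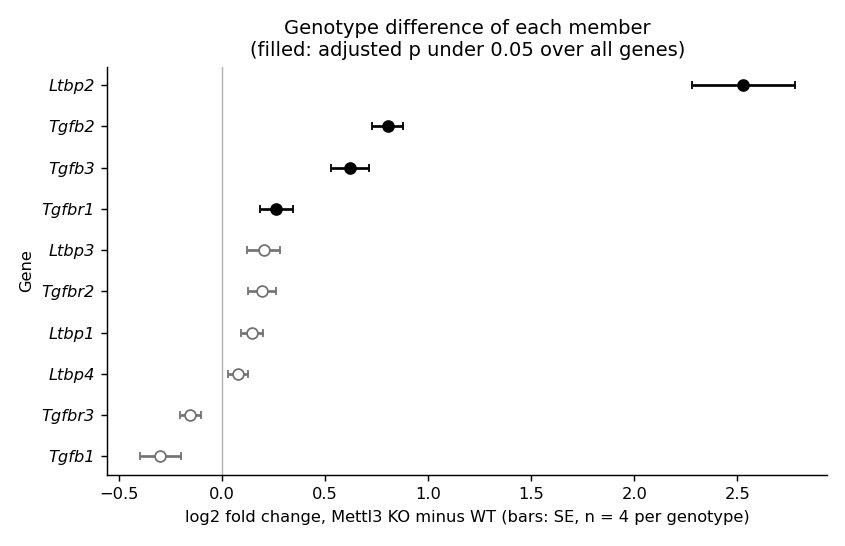
Log2 fold change of each of the 10 genes, Mettl3 KO minus WT, with bars for the standard error (n = 4 per genotype) and filled points for genes called over all genes. Ltbp2 lies at 2.53, Tgfb2 at 0.80 and Tgfb3 at 0.62, the other genes lie between -0.30 and 0.26, and the members were selected on this contrast.

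Differences among the receptors were smaller. Tgfbr1 encodes the type I receptor kinase that phosphorylates SMAD2 and SMAD3. Tgfbr1 (ENSMUSG00000007613, plus strand of chromosome 4 from 47353222 to 47414931) had 235, 228, 175 and 225 in the WT libraries against 251, 260, 260 and 260 in those of Mettl3 KO. The groups did not overlap, and WT library 3 stood well below the other WT libraries. The means were 216 ± 27.5 and 258 ± 4.5, a log2 fold change of 0.26 (SE 0.08). Tgfbr1 was called in 8 of 17 alternative settings, and without WT library 3 the log2 fold change was 0.17 and the gene was not called.

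The type II receptor gene Tgfbr2, whose product binds the ligand, and Tgfbr3, which encodes the co-receptor betaglycan that presents ligand and in particular TGF-β2, were not called. Tgfbr2 (ENSMUSG00000032440, minus strand of chromosome 9 from 115913361 to 116004428) had 377, 340, 418 and 353 in the WT libraries against 466, 373, 432 and 433 in those of Mettl3 KO, a log2 fold change of 0.19 (SE 0.07). WT library 3 and Mettl3 KO library 2 made the groups overlap, and without either of them the gene was called. Tgfbr3 (ENSMUSG00000029287, minus strand of chromosome 5 from 107254436 to 107437495) had 616, 593, 632 and 621 in the WT libraries against 558, 510, 587 and 562 in those of Mettl3 KO, a log2 fold change of -0.15 (SE 0.05). Every Mettl3 KO library was below every WT library, and Tgfbr3 was called only when libraries were rescaled to equal totals.

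To compare levels between genes, normalized read counts were divided by the length of the merged exons. In WT hearts Ltbp4 had 108 ± 2.69 normalized read counts per kb and Tgfbr3 94.0 ± 2.51, and both stood above all other members with no overlap of their libraries. Tgfbr2, Tgfb3 and Ltbp1 followed at 45.4, 44.7 and 43.7 per kb, an order in which neighbours overlapped. Tgfbr1 was at 33.0 and Ltbp3 at 26.2 per kb, again with overlapping libraries, and Tgfb2 and Tgfb1 at 19.1 and 19.0 per kb could not be ranked. Ltbp2 came last at 1.86 ± 0.602 per kb. The most and least abundant members were thus both binding proteins.

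In Mettl3 KO hearts Ltbp2 was still the lowest member, at 11.6 ± 4.14 per kb, and its libraries then overlapped those of Tgfb1 at 15.4 ± 0.907. Tgfb3 had moved to 68.9 ± 7.51 per kb, above Tgfbr2 and Ltbp1 and overlapping Tgfbr3 at 84.7 ± 4.92. Tgfb2 at 33.5 ± 0.827 per kb lay above Ltbp3 at 30.0 ± 2.27, which it had been below in WT.

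**Figure D3:**
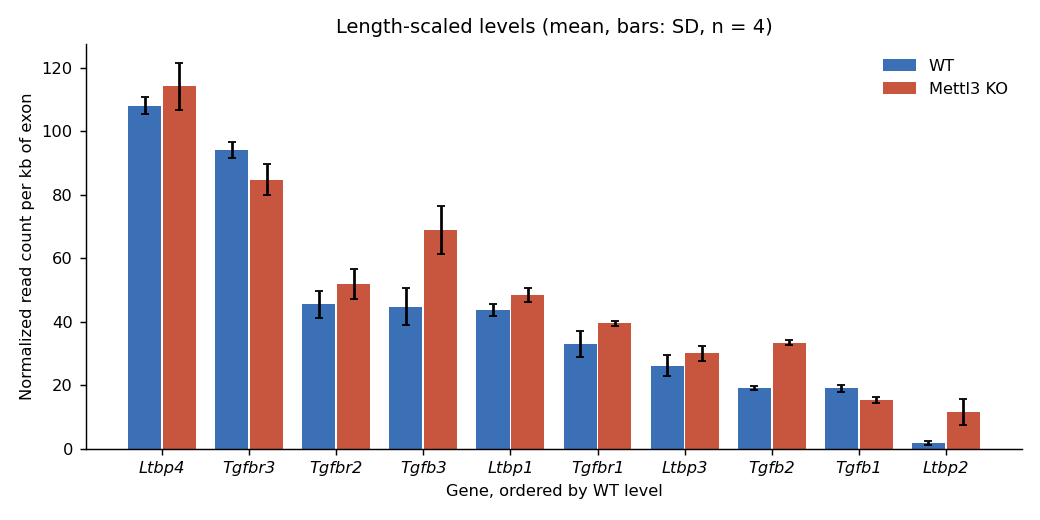
Normalized read counts per kb of exon for the 10 genes, ordered by their WT mean, with bars for the mean and error bars for the SD (n = 4 per genotype). Ltbp4 and Tgfbr3 lead in both genotypes, and Ltbp2 is last in both, at 1.86 per kb in WT and 11.6 per kb in Mettl3 KO.

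The make-up of each group of genes followed from these levels. The 4 binding proteins summed to 178 to 182 normalized read counts per kb in the WT libraries and to 191 to 215 in those of Mettl3 KO, and Ltbp2 made up 1.04% ± 0.335 and 5.64% ± 1.86 of that sum. Ltbp4 held 58.7% to 61.1% in WT and 54.2% to 59.1% in Mettl3 KO libraries. Even after its rise Ltbp2 was thus a small part of the binding protein transcripts. The ligands summed to 82.8 ± 5.61 per kb in WT and 118 ± 7.16 in Mettl3 KO, of which Tgfb1 made up 23.0% ± 2.03 and 13.1% ± 1.26. Tgfb3 was the most abundant ligand in both genotypes, with 53.9% ± 3.54 and 58.4% ± 2.98 of the sum, and Tgfb2 had 23.1% ± 1.67 and 28.5% ± 1.74. The receptors summed to 173 ± 3.95 and 176 ± 8.73 per kb, and within that sum Tgfbr3 had 54.5% ± 0.861 in WT and 48.1% ± 0.849 in Mettl3 KO. The shares of Ltbp2, Tgfb2 and Tgfbr1, higher in Mettl3 KO, and those of Tgfb1 and Tgfbr3, lower there, did not overlap between the genotypes.

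Some members lie across other genes of the table, which matters for what their reads stand for, although the authors counted by strand and left out reads over several genes. The 3′ end of Tgfb3 overlaps that of Ttll5, a tubulin glutamylase gene on the opposite strand, which had 211 to 234 normalized read counts in WT and 171 to 199 in Mettl3 KO (log2 fold change -0.24, adjusted p = 0.0367, limma), so Ttll5 fell while Tgfb3 rose. Tgfb2 overlaps the lncRNA gene Gm35546 on the opposite strand, at 87 to 123 in WT and 85 to 133 in Mettl3 KO (log2 fold change 0.02), which was not called. Unlike Tgfb2, Gm35546 overlapped widely between genotypes. Ltbp1 and Tgfbr3 span low-count genes on their own strand, with at most 9 normalized read counts for Gm6276 in Ltbp1 and at most 41 for Gm42900 in Tgfbr3.

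By their profile over the 8 libraries, the genes most like Ltbp2 among 12026 genes with a mean of at least 20 were Gm45769 (Pearson r = 0.986 on the log2 scale), Spred1 (r = 0.985), Serpinf1 (r = 0.98), Mrps34 (r = 0.98) and Thbs4 (r = 0.979). These coefficients describe 8 libraries that share a genotype difference. With the genotype means removed r was 0.889, 0.875, 0.846, 0.912 and 0.813 in that order. The genes were picked by r over these same libraries, so a high value here is partly set by that choice. Each of them was lowest among Mettl3 KO libraries in number 2, as Ltbp2 was. Gm45769 had 12 to 14 in WT and 20 to 34 in Mettl3 KO, so only Mettl3 KO took its mean past 20. Thbs4, a matricellular thrombospondin, had 22 to 31 normalized read counts in WT and 58 to 100 in Mettl3 KO, with Mettl3 KO library 2 at 58. Serpinf1, which encodes a secreted serpin known as pigment epithelium-derived factor, had 64 to 69 and 79 to 97.

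To place the family among its partners, 55 further genes of the TGF-β pathway in 5 lists were followed. These lists were drawn up with earlier results of these data known, so they are not independent evidence of direction. Of the 55 genes 24 rose and 1 fell, beside 4.72% and 3.19% of all genes tested, and their median log2 fold change was 0.21, beside -0.01 for all genes. Leaving out 5 genes that also stand in the marker lists used below, 21 of 50 rose and 1 fell. The 50 still hold matrix genes that rose, such as Dcn and Postn, so this count does not separate pathway from cell type.

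Genes that act on the stored complex were among those that rose. Of 16 genes for latency and activation 6 rose and 1 fell, beside 4.72% and 3.19% of all genes tested. In that list 9 were not called, and the median was 0.17. Thbs1, thrombospondin-1, which releases TGF-β from its propeptide, had 105.8 ± 6.65 in WT and 186.5 ± 14.7 in Mettl3 KO (log2 fold change 0.81, adjusted p = 1.7e-06, limma). Fbn2, which encodes a fibrillin to which binding proteins attach, had 72.0 ± 8.68 and 106 ± 19.0 (log2 fold change 0.54, adjusted p = 0.00821, limma), whereas the more abundant Fbn1 was at 0.06 and not called. Mmp2, a matrix protease, and Tgfbi, a TGF-β-induced matrix protein, rose by 0.47 and 0.46 on the log2 scale. Tgfbi is 1 of the 6 counted here, although as an induced gene it would also suit the list of target genes. Itgb6, the beta subunit of an epithelial integrin that activates TGF-β, fell from 298 ± 27.6 to 230 ± 3.77 (log2 fold change -0.37, adjusted p = 0.00108, limma) and was the exception in the list.

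Of 9 co-receptors and ligand traps 4 rose and 0 fell by limma, beside 4.72% and 3.19% of all genes tested. At an unadjusted p under 0.05 there were 5, with voom weights 4 were called, and the list median was 0.11. Fmod, fibromodulin, a small proteoglycan that binds TGF-β, had 32, 20, 11 and 20 in the WT libraries against 76, 54, 71 and 81 in those of Mettl3 KO (log2 fold change 1.79, adjusted p = 1.66e-05, limma). Bambi, a decoy receptor without a kinase, had 41.3 ± 2.75 and 92.8 ± 18.2 (log2 fold change 1.13, adjusted p = 1.09e-05, limma). The proteoglycans Dcn and Bgn rose by 0.30 and 0.23 on the log2 scale, and Nrp1, a co-receptor shared with other ligands, was at 0.04 and not called.

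By limma 0 of 5 SMAD genes were called, beside 7.91% of all genes tested and 13.3% of those with means of at least 50. For 5 genes 0 is near that share, so nothing is read from the count. An unadjusted p under 0.05 was found for 0, and 0 were called with voom weights or in any of the other 16 alternative settings. Smad2 and Smad3, the receptor-activated signal carriers, had log2 fold changes of 0.13 and -0.03, Smad4, their common partner, -0.03, and the inhibitory Smad6 and Smad7 0.07 and 0.08. The standard errors ran from 0.06 for Smad4 to 0.14 for Smad6, so differences of that size were not detectable with these libraries, and phosphorylation of the proteins was not measured. Of 10 intracellular regulators 3 rose, beside 4.72% of all genes tested, and 7 were not called, with a median of 0.18. These were Pmepa1, an inhibitor of SMAD activation that is itself a target (0.39 on the log2 scale), Zfyve9, the SMAD anchor SARA (0.21), and the SMAD phosphatase gene Ppm1a (0.20), while the corepressor Ski was at 0.06.

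The list of TGF-β target genes had the highest count, with 11 of 15 genes higher, beside 4.72% of all genes tested. In it 4 were not called, and the median was 0.43. Cilp, which encodes a matrix protein of cartilage and scar tissue, had 121, 72, 85 and 66 in the WT libraries against 357, 219, 356 and 296 in those of Mettl3 KO (log2 fold change 1.84, adjusted p = 7e-08, limma). Comp, a matrix protein of tendon and scar, Lox, the collagen crosslinking enzyme, and Postn, periostin, rose by 1.51, 1.17 and 0.98 on the log2 scale. Acta2, the smooth muscle actin of myofibroblasts and vessel walls, had 163 ± 39.9 and 179 ± 35.5, a log2 fold change of 0.14, and was not called. In the fit without a mean-variance trend the counts over the lists were much lower, with 5 target genes and 1 latency gene called.

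**Figure D4:**
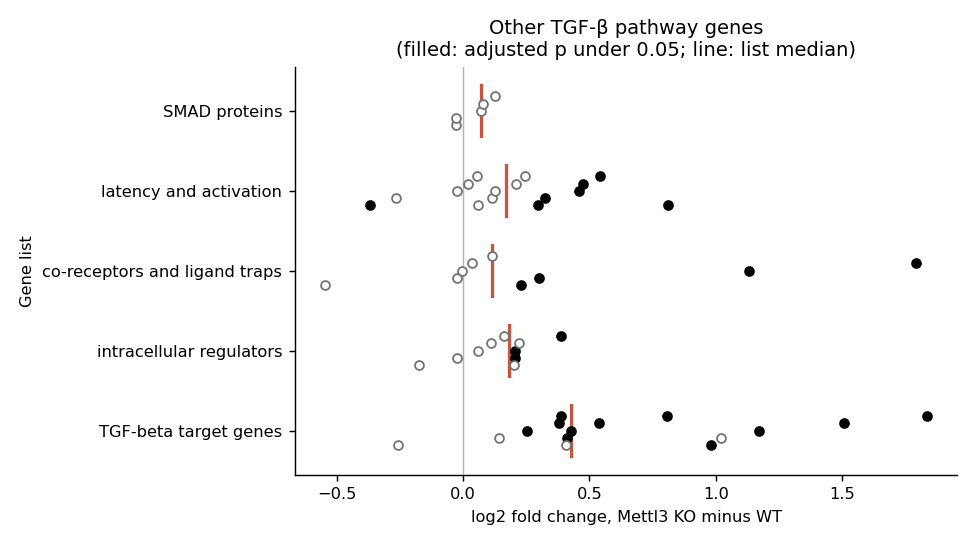
Log2 fold change, Mettl3 KO minus WT, of 55 TGF-β pathway genes in 5 lists, with filled points for called genes and a line at each list's median. The 5 SMAD genes lie between -0.03 and 0.13, and the 11 target genes called of 15 lie between 0.25 and 1.84.

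Markers of other cell types moved with these genes in part. Beside the counts of marker lists that follow, 4.72% of all genes tested rose and 3.19% fell. Of 10 fibroblast markers 7 rose (2 in the fit without a mean-variance trend) and 3 were not called, with a median of 0.39. Their summed normalized read counts were 3368 to 3784 in WT and 4104 to 4756 in Mettl3 KO libraries without overlap, and Mettl3 KO library 2, in which Ltbp2 was lowest, also had the lowest sum of its group. The collagen genes Col1a1, Col1a2 and Col3a1 stand in both the target list and the fibroblast list. Ltbp2 differed by 2.53 on the log2 scale where the fibroblast markers ranged from -0.05 for Fap to 0.48 for Lum. Whether the number of fibroblasts has a part in the differences of Ltbp2, Tgfb2 or Tgfb3 was not tested. In RNA of heart tissue more cells of a type and more RNA per cell cannot be told apart.

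Of 8 endothelial markers 3 fell and Vwf rose, and the sums were 4825 to 4975 in WT and 4407 to 4786 in Mettl3 KO. Of 9 smooth muscle and pericyte markers 0 were called by limma, 4 had an unadjusted p under 0.05 and 0 were called with voom weights, with sums of 2862 to 3102 and 2709 to 3010. Of 8 macrophage markers only Cd163 was called, lower, and their sums overlapped at 1295 to 1582 and 1309 to 1537. The 6 lymphocyte markers summed to at most 27 in any library, and 0 were called by limma, with 1 at an unadjusted p under 0.05 and 0 with voom weights. Of 4 mesothelial markers Upk3b and Lrrn4 rose, with sums of 67 to 106 in WT and 86 to 137 in Mettl3 KO. The 7 cardiomyocyte markers, high in all libraries as the label heart requires, summed to 88672 to 95082 and 85978 to 96171, and only Ryr2 was called, lower. Of all genes tested 7.91% were called, and 13.3% of those with a mean of at least 50. The counts called in the smooth muscle, macrophage, lymphocyte and cardiomyocyte lists are near those shares, so nothing is read from them. The part of these cell types in the differences of the TGF-β genes was not tested.

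Genes of the atrium differed between libraries of one genotype. Of 5 atrial genes 4 rose, beside 4.72% of all genes tested. Bmp10 was listed at 0 in all WT libraries and in Mettl3 KO library 1. In Mettl3 KO libraries 2 to 4 it was at 195, 158 and 358. Myl7, the atrial myosin light chain, had 26, 21, 0 and 23 in the WT libraries against 23, 65, 90 and 119 in those of Mettl3 KO. Summed over the 5 genes, the WT libraries had 791 to 912 and Mettl3 KO libraries 1 to 4 had 923, 1276, 1351 and 1587. In Mettl3 KO library 1 Myl7 and Sln (10, beside 0 to 12 in WT) were within their WT ranges and Bmp10 was at 0, whereas Nppa at 452 was above its WT range of 175 to 292 and Kcnj3 at 438 was below its WT range of 532 to 616. In that library Ltbp2 stood at 93, Tgfb2 at 194, Tgfb3 at 267 and Tgfbr1 at 251, each above every WT library. With that library alone for Mettl3 KO, a setting chosen after seeing the data, the log2 fold changes were 2.59 (SE 0.42) for Ltbp2, 0.81 (SE 0.10) for Tgfb2, 0.82 (SE 0.16) for Tgfb3 and 0.23 (SE 0.17) for Tgfbr1. With 1 library on that side 0 of the 10 members and 8 genes of the whole table were called by limma, and the lone library was assumed to vary like those of WT. The labels do not give the amount of atrial tissue in a sample, and its part in the differences of the TGF-β genes was not tested. The values with Mettl3 KO library 1 alone come from the contrast that chose the family, so nothing on atrial tissue is read from them.

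**Figure D5:**
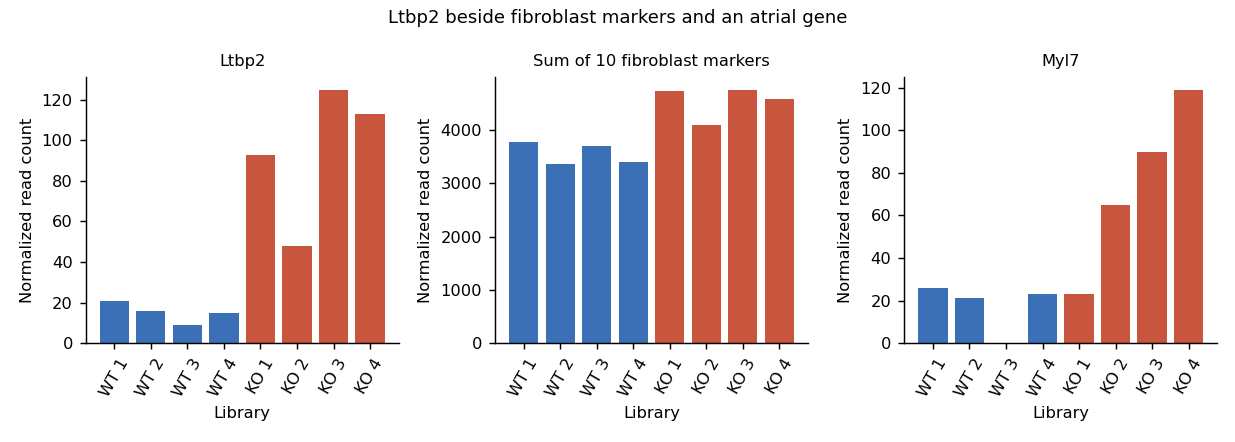
Normalized read counts of Ltbp2, the sum of 10 fibroblast markers and Myl7 in each of the 8 libraries, as bars from 0. Ltbp2 and the fibroblast sum are lowest among the Mettl3 KO libraries in number 2 (48 and 4104), whereas Myl7 is lowest there in number 1 (23).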

How the data were processed

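Total RNA of mouse hearts was sequenced as stranded single-end libraries, 1 per sample, and all 8 were used. As the study's methods state, reads were trimmed (Trimmomatic 0.39) by the authors, who aligned them to mm39 with STAR 2.7.11a, removed duplicate, multi-mapping, ribosomal and mitochondrial reads and counted exons by strand with featureCounts 2.0.4. The deposited values are a score: read counts that the authors normalized with DESeq2 and rounded to whole numbers, so tests for raw counts were not run. Removing duplicates of single-end reads can lower abundant transcripts.

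Genes with a mean of at least 1 entered a linear model in limma 3.58.1 (R 4.3.3), with genotype as its term, log2(value + 1) as the response and variance moderated along a mean-variance trend. Tests were two-sided, p was adjusted by the Benjamini-Hochberg method over all 20313 genes, and a gene was called at an adjusted p under 0.05. On this scale the change of low genes is understated. The fit was tested on simulated data. Gene identifiers linked the table to exon lengths of GENCODE (GRCm38), while locations are those of the deposited table. Alternatives were other scalings, filters, pseudocounts and variance models, the replicate number as a block, and each library left out.

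The members and lists were chosen with earlier results of these data known. Named were all members and SMAD genes, the 4 called genes with the largest change (mean at least 20) and the most abundant gene not called of each other pathway list, marker genes needed for a range, and the 5 genes most like Ltbp2. Itgb6, Ttll5, Gm35546, Gm6276 and Gm42900 were named after their values were seen. One gene that overlaps a member is not reported here.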

Additional observations from a re-analysis of the deposited data

Results flagged for a closer look

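Tgfbr1 drew attention in both genotypes because 1 library lay far from the other 3 of its group. In WT, library 3 had 175 normalized read counts beside 225, 228 and 235, a gap of 0.833 of the group's whole range. In Mettl3 KO, library 1 had 251 beside 260 in each of the other 3, a gap of 1.0 of the range, although that range spanned only 9 read counts. Of the 20 groups formed by 10 members and 2 genotypes these 2 were marked, where chance marks about 1 in 20.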

How the results depend on the processing

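The log2 fold changes of the 10 members kept their direction in all 170 combinations of member and planned setting. In the 68 combinations of the 4 called members the call was kept in 58 and lost in 10, and in the 102 of the other 6 members a call was gained in 5. Without the mean-variance trend 321 genes were called in place of 1607, 2 members (Ltbp2 and Tgfb2) in place of 4, 1 latency gene in place of 7, 2 co-receptors and traps in place of 4, 0 regulators in place of 3 and 5 target genes in place of 11. The fit without the trend called 2 fibroblast markers in place of 7, and 0 endothelial, mesothelial and atrial genes in place of 4, 2 and 4. Cd163 and Ryr2 were not called in it either. With each library left out in turn, 1019 (without Mettl3 KO library 3) to 1596 genes and 3 to 5 members were called. Rescaling left 55.5% to 60.2% of called genes higher, beside 59.6%. With the replicate block 1346 genes were called, of which 1304 were among the 1607, and 3 members, Tgfbr1 being lost. The labels give the numbers no shared origin, and same-numbered libraries deviated together with r of only -0.0414 to 0.0878. With Mettl3 KO represented by library 1 alone, a setting chosen after seeing the data, limma called 8 genes, 0 members and 0 genes in each pathway list, since fewer libraries were compared. In that setting Ltbp4 turned to -0.06. An estimated 2631281 to 3062476 reads per library limit Ltbp2 in WT, where 9 to 21 normalized read counts stand for its level.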
